A study of Cryptomeria japonica with 72 samples.

Results

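The ubiquitin and proteasome pathway was followed through 151 of the 19304 targets on a Cryptomeria japonica array. A target was included when its description in the study's supplementary gene lists contained ubiquitin, proteasome, F-box or RING/U-box. The lists named 5239 targets, and the list of 100 targets with large principal component weights held none of the 151. These lists hold targets that had varied on the same arrays, and the copy used here holds only the opening clusters of each list group (A1 to A3, B1 to B3 and C1 to C4). Pathway targets in the later clusters of all 3 groups were not analysed here as members. The choice of targets is therefore not independent of the values below, and no count of targets called is read as a property of the pathway.

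The samples were stem cuttings of the clone Tsukuba 1, cut from 18-year-old donor trees and set in greenhouse soil that was irrigated automatically, without other control of the environment. The base (the underground end, which roots), the middle (the aboveground stem) and the needles (shoots including needles) were sampled at 0 hpe (hours post excision), 0 hpi (hours post insertion, after excision and handling), 3 hpi, 1 and 3 dpi (days post insertion) and 1, 3 and 6 wpi (weeks post insertion). Each of the 24 groups held 3 cuttings, on 72 1-colour arrays. All cuttings came from 1 clone, and P-values measure the spread between cuttings of it. In tissue taken as a whole, fewer cells of a type and less RNA per cell cannot be told apart.

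Ubiquitin is a small protein that is attached to other proteins as a tag. An activating enzyme (E1) charges it, a conjugating enzyme (E2) carries it, and a ligase (E3) places it on a chosen substrate, where chains of ubiquitin mark the substrate for degradation by the proteasome. RING, U-box and F-box proteins give the ligases their choice of substrate, and in plants F-box proteins include the receptors for auxin, the hormone that drives adventitious rooting. Deubiquitinases remove the tag. By description, 44 members were RING/U-box proteins, 25 F-box proteins, 19 E1 or E2 enzymes, 12 ubiquitin genes, 9 other ligases, 9 deubiquitinases, 8 ubiquitin-binding proteins, 7 ubiquitin-like proteins and 6 proteasome or PCI domain proteins. The other 12 had a hit to Arabidopsis too weak to name (E value of 1e-05 or above). Symbols below are those of the Arabidopsis hit, and the known roles are from Arabidopsis.

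Levels are log2 processed signals minus that array's own 75th percentile, so that 0 is that percentile and a difference of 1 is a doubling. They compare 1 target across samples and not different targets with each other. A target was tested where every spot stood well above background on all arrays of its dataset, which left 120 of 151 members (of 9592 targets) for base and middle, 139 (of 12523) for needles and 116 (of 9175) for all arrays. A target was called where its adjusted P was below 0.05 and its log2 difference was 1 or more in either direction. Of the 151, 143 were tested in at least 1 dataset. The other 8 were reCj08994, reCj09556, reCj19884, reCj24417 (FUS5), reCj25134, reCj25734, reCj28119 and reCj31917 (SLY1, an F-box protein of gibberellin signalling).

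Arrays differed in brightness, with 75th percentiles of 162 to 1133 in the base, 299 to 1764 in the middle and 455 to 1418 in the needles. Some arrays stood apart. Replicate 2 of the base at 3 hpi was the farthest of its 3 in 91 of 120 members, replicate 2 of the middle at 6 wpi in 84 of 120, and replicate 2 of the needles at 0 hpe in 113 of 139. The base and needles at 0 hpe were on slides shared with 0 hpi but with neither 3 hpi nor 6 wpi. All 3 arrays of the middle at 0 hpe were on a slide that held none of its arrays at 0 hpi or 3 hpi. In those comparisons of the middle, no slide held both times. The middle had 3 slides of its own, so that slide and part cannot be told apart in any comparison of base with middle.

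At 0 hpi, 6 of 11 tested ubiquitin genes were called higher than at 0 hpe at the base, and none lower, where 7.15% of all targets tested were called higher and 4.03% lower. Of the 6, reCj30170, reCj28284, reCj26440, reCj30909 and reCj34466 were listed in cluster A1, described by the study as having a peak at 0 hpi. The other, reCj26812, was listed in A2. The rise at 0 hpi is therefore not independent of the list. The count called higher was 8 of 11 at 3 hpi (15.5% of all targets higher) and 6 of 11 at 6 wpi (16.8%). With slide as a fixed block none of the 6 at 6 wpi was called (adjusted P from 0.083 to 0.344). In the middle, 6 and 8 were called higher at 0 and 3 hpi (all targets 6.16% and 11.9%) and 1 at 6 wpi (1.36%). In the needles they were 6, 2 and 0 of 12 (5.42%, 4.36% and 5.29%). Most of these genes encode head-to-tail ubiquitin repeats (polyubiquitin) and some a ubiquitin fused to a ribosomal protein. Such sequences are near-identical, and whether probes of one hybridized with another was not tested.

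The largest rise at 0 hpi was that of reCj30170 (UBQ11, a polyubiquitin gene). At 0 hpe its level at the base was 1.52, 1.98 and 2.41 in the 3 cuttings, and at 0 hpi 6.70, 6.73 and 6.73. The middle went from 1.77, 1.77 and 2.46 to 6.16, 6.24 and 6.68, and the needles from 2.22, 2.49 and 2.24 to 5.44, 5.47 and 4.81. In every part all arrays at 0 hpi lay above all arrays at 0 hpe. The rise was 27.0-fold at the base (log2 difference 4.75 ± 0.37 SE, adjusted P = 2.3e-12), 20.5-fold in the middle and 7.59-fold in the needles (2.92 ± 0.20, adjusted P = 4.0e-09).

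At 3 hpi reCj30170 stood at 6.53, 6.71 and 6.70 at the base and at 5.68, 4.82 and 4.21 in the middle, with no overlap (log2 difference 1.74, adjusted P = 0.0025). That call was lost without replicate 3 of the middle (1.40, adjusted P = 0.0515) and in a fit of those arrays alone (adjusted P = 0.262). By 6 wpi the base was at 3.04, 4.25 and 3.07, still above its 0 hpe arrays (1.49, adjusted P = 0.0011). The middle was then at 2.67, 2.86 and 2.06, which overlapped 0 hpe (0.53, adjusted P = 0.46). Between base and middle the changes differed by 0.96, which was not called (adjusted P = 0.172). The needles, at 2.99, 2.98 and 2.83, were all above 0 hpe but by less than a doubling and were not called (0.61, adjusted P = 0.021).

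Most other ubiquitin targets followed a course like that of reCj30170. Across the 24 group means, which share arrays and scaling, its Pearson correlation was 0.98 with reCj26440 (UBQ10), 0.96 with reCj28284 (UBQ11) and with reCj34466 (UBQ1), 0.94 with reCj30909 (UBQ11) and 0.88 with reCj31321 (UBQ11). It was 0.85 with reCj26812 (UBQ14) and 0.76 with reCj24542 (UBQ4). The study formed its clusters by Pearson correlation on these same arrays. The list placed reCj30170 and the targets at 0.88 or more in cluster A1, and reCj26812 and reCj24542 in A2. Their likeness is therefore not independent of the lists. At the base at 0 hpi the log2 difference from 0 hpe was 4.09 for reCj28284, 3.62 for reCj26440, 3.51 for reCj30909, 2.67 for reCj26812 and 2.50 for reCj34466, all called. The difference of reCj24542 at 0 hpi, 1.18, missed the threshold (adjusted P = 0.059), whereas the one at 3 hpi, 1.83, was called, with arrays that overlapped. Without replicate 2 of the base at 3 hpi it was 1.00 (adjusted P = 0.0515). The target reCj31321 was not tested in the stem, since 1 array of the base at 0 hpe had no spot above background. In needles it was higher at 0 hpi by 1.47 (adjusted P = 0.0020), and with normexp the value was 0.85, not called.

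Other targets of the same name were not called. The UBQ10 target reCj20608 was at 2.16, 2.06 and 1.96 at the base at 0 hpe and at 1.77, 1.98 and 1.72 at 0 hpi, and its log2 differences from 0 hpe at the base were -0.24, 0.13 and 0.62 at 0 hpi, 3 hpi and 6 wpi, the last with an adjusted P of 7.65e-04 but short of a doubling. The UBQ10 target reCj21606 gave -0.50, -0.28 and 0.05. Its difference in the middle at 6 wpi was 0.74 (adjusted P = 0.0748). In contrast, reCj26440, with the same Arabidopsis hit, rose by 3.62, 3.78 and 1.54. The correlation of reCj30170 was -0.02 with reCj20608 and -0.04 with reCj21606. Both were listed in cluster A3 and not in A1, so this contrast is not independent of the lists either. The study used a ubiquitin gene as the reference for quantitative PCR, and which of these targets it corresponds to was not determined here.

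The UBQ6 target reCj29650, a ubiquitin fused to a ribosomal protein, rose later. It was at -1.35, -1.48 and -0.76 at the base at 0 hpe, at 0.04, 1.06 and 0.09 at 3 hpi, and at 0.63, 0.24 and 0.45 at 6 wpi. At 6 wpi the middle was at -1.10, -0.11 and -1.61, all below the base (log2 difference 1.38, adjusted P = 6.6e-04). The UBQ1 target reCj30964, another such fusion, went the other way. At 6 wpi it was at 3.73, 3.30 and 3.66 at the base against 4.59, 4.68 and 4.35 in the middle, and its change since 0 hpe differed between base and middle by -1.16 (adjusted P = 0.0047), although neither change was itself called.

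**Figure D1:**
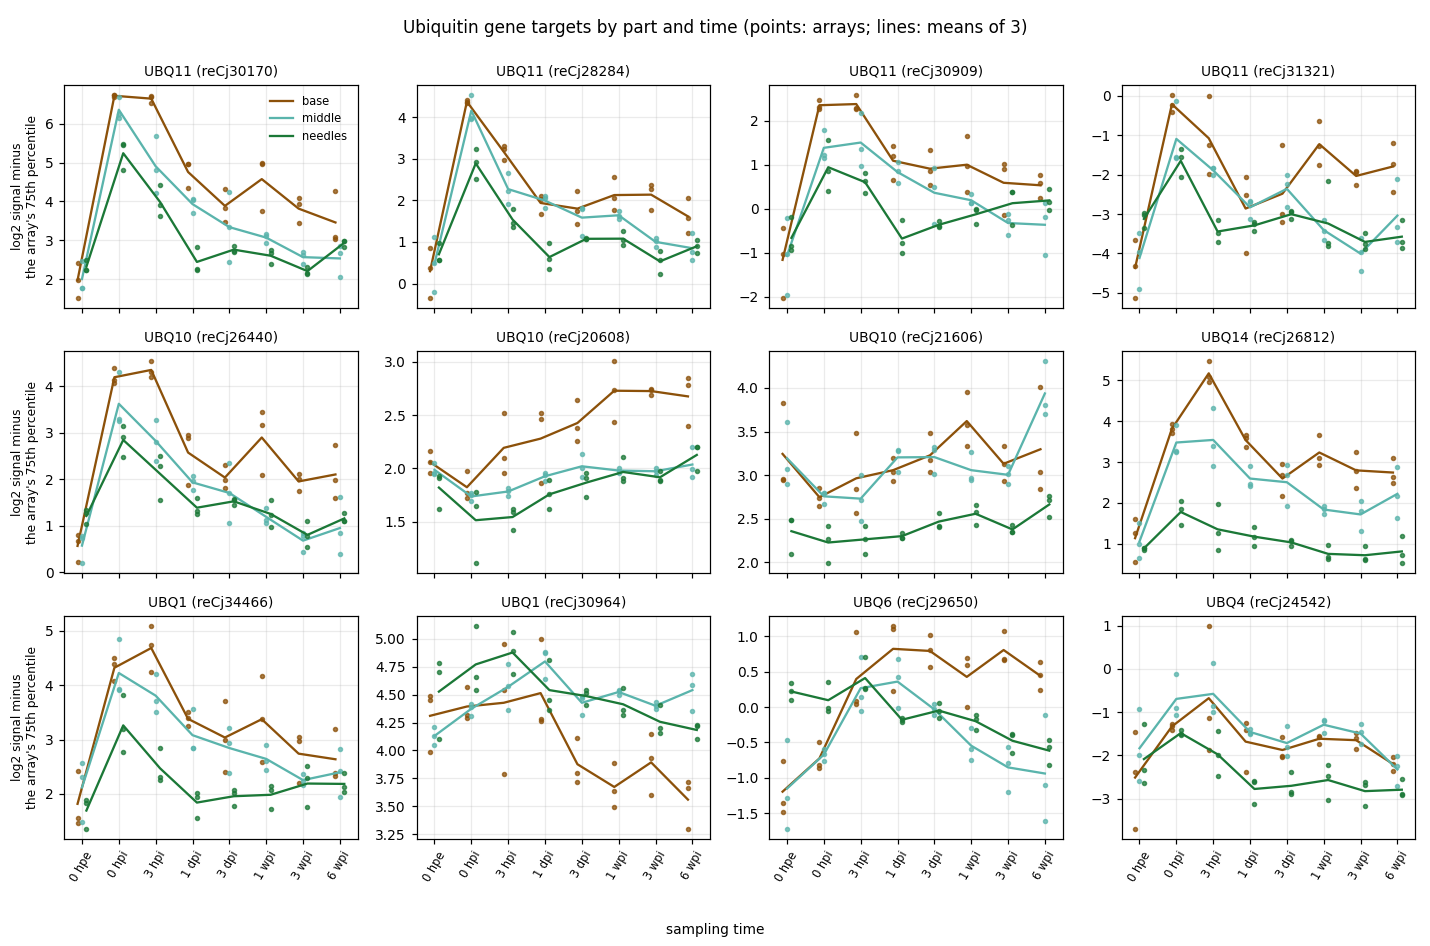
Log2 level (0 is each array's 75th percentile) for the 12 ubiquitin targets at the 8 time points, with 1 point per array and lines through the group means of base, middle and needles. reCj30170 rises to between 6.70 and 6.73 at the base at 0 hpi and lies between 6.53 and 6.71 at 3 hpi, while reCj20608 and reCj21606 are called at no time against 0 hpe.

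Counted over all classes, the base at 3 hpi had the most calls of the 13 comparisons. At the base at 0 hpi, 22 of 120 members were higher than at 0 hpe and 6 lower (all targets 7.15% and 4.03%). Without replicate 1, 2 or 3 of the base at 0 hpe the counts were 19 and 2, 20 and 2, and 28 and 10. With only the arrays compared they were 17 and 0. At the base at 3 hpi, 43 members were higher and 21 lower, where 15.5% of all targets were called higher and 14.6% lower. The median log2 difference of the members at 3 hpi was 0.485, that of all targets -0.0118. In the middle, 18 members were higher and 7 lower at 0 hpi (all targets 6.16% and 3.61%), and 33 higher and 14 lower at 3 hpi (11.9% and 7.85%). With slide as a fixed block among the middle arrays, 15 were higher and 2 lower at 0 hpi, and 30 and 12 at 3 hpi. At 3 hpi the counts were 20 and 12 without replicate 1 of the middle at 3 hpi, and 18 and 8 with only the arrays compared. Comparisons with 0 hpe share the 0 hpe arrays. Among targets of the same lists outside the pathway, 14.3% were called higher and 4.7% lower at the base at 0 hpi (members 18.3% and 5%), 27.1% and 15.5% at 3 hpi (members 35.8% and 17.5%) and 18.8% and 8.78% at 6 wpi (members 18.3% and 4.17%). Without replicate 2 of the base at 3 hpi, 41 members were higher and 21 lower.

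At 6 wpi the study used bases that had rooted and carried roots a few centimeters long. The part of the roots in the values was not tested. There 22 of 120 members were higher than at 0 hpe and 5 lower, where 16.8% of all targets were called higher and 10.7% lower (median 0.309 for members, 0.161 for all targets). With quantile normalization the members were 17 and 8. The 5 lower members were the RING/U-box proteins reCj28483, reCj27631 and reCj27546 and the F-box proteins reCj20350 and reCj26131. The last, named by a weak hit (E value 7.97e-06), was at -0.98 and not called without replicate 3 at 6 wpi. With slide as a fixed block among the base arrays, 2 were higher and 1 lower, and no slide held both times. In the middle, 1 member was higher and 1 lower, where 1.36% of all targets were called higher and 0.5% lower. These were reCj26812 (UBQ14, 1.16) and the F-box protein reCj20350 (-1.10). The total of 2 became 0 without replicate 2 of the middle at either time and 1 without replicate 1 at either time or replicate 3 at 0 hpe. Neither was called with slide as a fixed block, and 19 members had an unadjusted P below 0.05.

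In the needles, 16 of 139 members were higher and 5 lower at 0 hpi (all targets 5.42% and 4.34%). With the normexp background correction these were 12 and 0. At 3 hpi, 9 were higher and 2 lower (all targets 4.36% and 4.83%), and the total of 11 became 17 without replicate 2 at 3 hpi, 7 without replicate 1 at 3 hpi, 6 without replicate 1 at 0 hpe and 7 without replicate 3 at 0 hpe. At 6 wpi, 1 was higher and 15 lower, or 0.719% and 10.8% of members (all targets 5.29% and 7.67%, other targets of the same lists 4.5% and 15.8%), and with slide as a fixed block 1 and 4. Without replicate 2 at 0 hpe the counts were 16 and 5 at 0 hpi, 10 and 5 at 3 hpi, and 3 and 14 at 6 wpi.

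**Figure D2:**
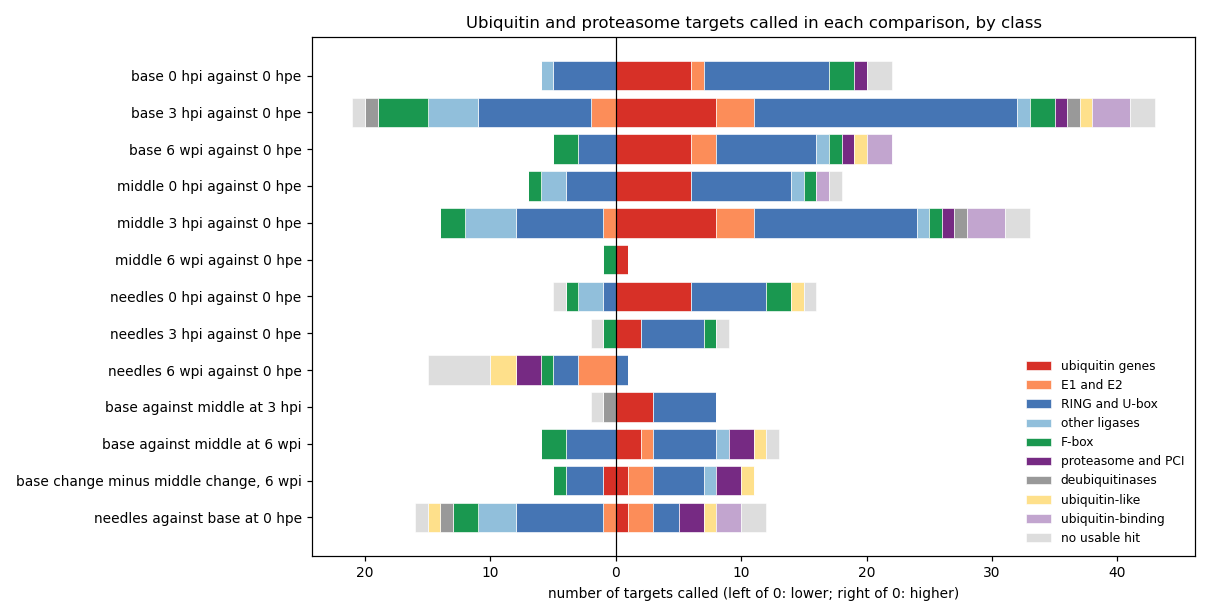
Number of members called higher (right of 0) and lower (left of 0) in each comparison, stacked by class of protein, with comparisons on the vertical axis. The base at 3 hpi has the most, with 43 higher and 21 lower, and the needles at 6 wpi are the comparison with 1 higher and 15 lower.

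Over the 24 group means, a member's highest and lowest groups were a median of 2.14 apart on the log2 scale, from 0.89 to 14.63. These ranges take in all 151 members, also those that failed the background filter, whose low values are not well measured. The 14.63 was that of reCj10663, which has no usable hit and was not tested in the stem, where its lowest group lay. The median range was 3.26 for ubiquitin genes, 2.67 for RING/U-box proteins and 1.25 for deubiquitinases. The highest group mean lay in the base for 94 members, in the middle for 31 and in the needles for 26. The base at 3 hpi was the highest group for 29 members, more than any other group. The same counts were not made for all targets, so they are not read as a trait of the members.

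The largest called difference of an E1 or E2 enzyme was that of reCj27456 (UBC8, an E2 that works with many ligases). At 0 hpe it was at -4.25, -4.49 and -3.12 at the base and at -4.22, -4.47 and -3.33 in the middle. At 3 hpi the base was at -1.30, 0.33 and -0.74 and the middle at -0.92, -1.69 and -2.49, all above 0 hpe. At 6 wpi the base stood at -1.34, -1.64 and -1.84, whereas the middle had returned to -4.55, -3.08 and -4.59. The base was 5.51-fold above the middle at 6 wpi (log2 difference 2.46, adjusted P = 2.3e-05), without overlap. In needles the same target was at -2.38, -1.87 and -2.53 at 0 hpe and at -3.48, -3.56 and -3.89 at 6 wpi (-1.38, adjusted P = 2.9e-05). The list placed reCj27456 in cluster C2, which the study describes as repressed in needles after 3 wpi, so this fall is not independent of the list. Another target with the UBC8 hit, reCj27572, did not follow this course. It was not tested in the stem, and its lowest group mean was at the base at 3 hpi, its highest in the middle at 1 dpi. In needles at 6 wpi reCj27572 was not called.

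The enzyme for the ubiquitin-like modifier UFM1, reCj28812, followed a similar course. At the base it was at -3.61, -3.29 and -2.73 at 0 hpe and at -1.52, -1.37 and -1.60 at 6 wpi, with no overlap (log2 difference 1.71). In the middle it was at -2.60, -2.81 and -2.10 at 0 hpe and at -2.79, -1.33 and -3.15 at 6 wpi, where the groups overlapped. Other conjugating enzymes differed among themselves. At the base at 3 hpi, UBC5 was lower by -1.59 in reCj28584 and at 0.41 in reCj25680, which was not called, and UBC19 was higher by 1.21 in reCj30459 and at 0.41 in reCj15010. In all, 3 of 14 tested E1 and E2 enzymes were called higher and 2 lower at the base at 3 hpi (all targets 15.5% and 14.6%), and 2 higher and 0 lower at 6 wpi (16.8% and 10.7%).

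Of the 6 proteasome and PCI domain members, 4 were tested in the stem. The alpha subunit PAD2 (reCj25688), part of the outer ring of the 20S core, was at -4.57, -4.36 and -2.55 at the base at 0 hpe and at -1.75, -2.45 and -1.47 at 6 wpi (log2 difference 1.94, adjusted P = 2.6e-04). In the middle it was at -4.01, -4.21 and -2.41 at 0 hpe and at -4.14, -2.69 and -4.65 at 6 wpi, where the groups overlapped (-0.29). At 6 wpi the base was 3.85-fold above the middle (1.94, adjusted P = 3.7e-04), and all its arrays lay above those of the middle. Replicate 3 at 0 hpe was the highest of its 3 in both parts. The alpha subunit PAC1 (reCj26838) was at -0.50, -0.99 and -0.54 at the base and at -1.79, -1.69 and -1.82 in the middle at 6 wpi (1.09), although its difference from 0 hpe at the base, 0.66, was not called. Rpn2 (reCj18247), a scaffold of the regulatory particle, differed from 0 hpe at the base at 6 wpi by 0.89, short of a doubling, and was not called.

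In needles at 6 wpi, 2 of the 5 tested proteasome and PCI members were called lower and none higher (all targets 7.67% and 5.29%). PAD2 was at -1.07, -1.42 and -0.95 at 0 hpe and at -2.34, -2.66 and -2.88 at 6 wpi, a 2.79-fold fall without overlap (log2 difference -1.48 ± 0.16, adjusted P = 6.5e-06). PAC1 went from 0.14, -0.15 and 0.21 to -0.96, -0.98 and -1.03 (-1.06). RPN1A (reCj18611), another regulatory particle subunit, gave -0.93, short of a doubling and not called (adjusted P = 8.1e-04). Rpn2 was at 0.56 and the PCI protein reCj13491 at 0.01, neither called. The median of the 5 tested proteasome and PCI members was -0.933, against 0.0281 for all targets. PAD2, PAC1 and RPN1A were listed in cluster C2, which the study describes as repressed in needles after 3 wpi. Cluster C6, which it describes as induced then, was not in the copy used here. The falls of PAD2, PAC1 and RPN1A, and this median, are therefore not independent of the choice of targets. With slide as a fixed block the falls were smaller, -0.73 for PAD2 and -0.99 for PAC1, and neither was called. Without replicate 3 at 0 hpe PAC1 was at -0.99, short of a doubling.

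**Figure D3:**
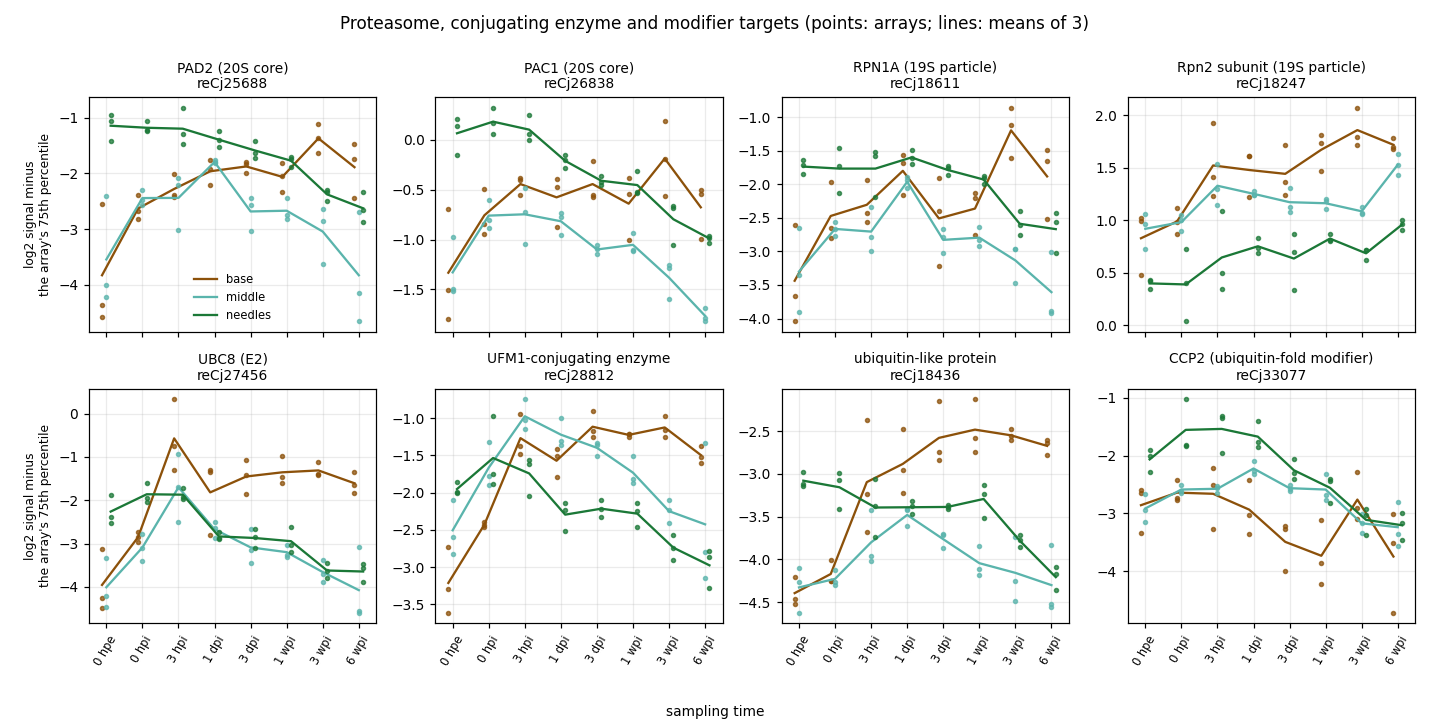
Log2 level (0 is each array's 75th percentile) at the 8 time points for 4 proteasome subunits, 2 conjugating enzymes and 2 ubiquitin-like proteins, with points for arrays and lines for group means. The UBC8 target reCj27456 and PAD2 separate base from middle at 6 wpi, and both fall in needles at that time.

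The RING/U-box proteins, the largest class of ligases, held both the steepest rise and the steepest fall of the base. At 3 hpi 21 of 39 tested were called higher and 9 lower (median 1.03), where 15.5% of all targets were called higher and 14.6% lower. The RING/U-box protein reCj30186 was at -2.81, -2.55 and -2.77 at the base at 0 hpe, at 2.30, 1.19 and 1.80 at 0 hpi, and at 4.26, 1.26 and 4.59 at 3 hpi. Its rise at 3 hpi was 67.7-fold (log2 difference 6.08), and replicate 2, the array that stood apart, was the lowest. At 6 wpi it remained higher at the base by 3.38. Its level in the middle, 2.08 above 0 hpe, missed the threshold (adjusted P = 0.16), and the difference between these changes was not called. In needles it was called at 3 hpi (1.88) and at neither 0 hpi nor 6 wpi.

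The RING/U-box protein reCj25016, listed in cluster A1 (described as peaking at 0 hpi), gave a short response. It was at -0.99, -0.57 and -0.83 at the base at 0 hpe, at 3.11, 3.62 and 3.26 at 0 hpi (17.5-fold) and at 1.44, 1.59 and 1.18 at 3 hpi. At 6 wpi it was at 0.11, -0.19 and -0.54, above 0 hpe by 0.59. The middle at 3 hpi, at 0.74, -0.44 and -0.23, lay below the base in every array (1.38). PUB4 (reCj18183), a U-box protein with armadillo repeats, was not called at 0 hpi but was at 2.93, 4.33 and 3.27 at 3 hpi against 0.53, 0.17 and 0.28 at 0 hpe (9.09-fold). At 6 wpi it was at 1.58, 1.84 and 1.47 at the base and at 0.22, 0.91 and 0.28 in the middle.

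The steepest fall was that of the RING/U-box protein reCj28483. At the base it was at 4.21, 3.49 and 1.43 at 0 hpe and at -1.56, -2.74 and -1.84 at 3 hpi, a 34.2-fold fall (log2 difference -5.10). At 6 wpi the base was at -0.39, -0.56 and -0.41 while the middle was back at 2.83, 1.31 and 3.47, 7.93-fold above the base (-2.99, adjusted P = 3.0e-04). The RING/U-box protein reCj27631 fell likewise, from 0.76, 1.00 and -0.28 at 0 hpe to -2.07, -1.12 and -2.96 at the base at 6 wpi, whereas the middle stood at 0.68, -0.29 and 1.01. In both targets the base and the middle at 6 wpi did not overlap, and replicate 3 was the lowest of its group at 0 hpe. In needles reCj27631 was the 1 member called higher at 6 wpi (1.15), and with slide as a fixed block it was -0.14. It was not called without replicate 1 or 3 at 0 hpe (0.98 and 0.71) or without replicate 2 or 3 at 6 wpi (1.08 and 1.15).

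Members with the same Arabidopsis hit did not always move together. The 139 usable hits fell on 104 Arabidopsis genes, and 30 of these were hit by more than 1 member. Of 22 with 2 or more members tested at the base at 3 hpi, 8 had all members called the same way, 5 none called, 6 some called and 3 members called in opposite directions. All 3 were RING/U-box genes. PUB4 rose in reCj18183 (3.18) and fell in reCj11077 (-1.09), reCj26373 rose by 3.17 while reCj23820 fell by 1.17, and reCj30325 rose by 2.54 while reCj28409 fell by 1.29. Whether these are separate genes, or parts of 1 transcript, is not given in the sources used here.

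Of the other ligases, 1 of 9 was called higher and 4 lower at the base at 3 hpi (all targets 15.5% and 14.6%), and 1 higher and 0 lower at 6 wpi (16.8% and 10.7%). SAUL1 (reCj17997), a U-box ligase that restrains senescence, rose from -2.05, -2.27 and -1.79 at 0 hpe to -0.13, 0.78 and -0.01 at 3 hpi (log2 difference 2.25). Both targets named SIS, described as an RLIM-like E3 ligase, were called lower. Their hits are weak (E values 3.18e-06 for reCj31184 and 3.58e-07 for reCj28519), and they count as ligases here by that description alone. The target reCj31184 went from 1.97, 2.83 and -0.10 to -1.26, -2.52 and -1.65 (-3.38), and the target reCj28519 gave -2.65. The second call was lost without replicate 2 at 0 hpe (-1.44, adjusted P = 0.126). In needles at 0 hpi no spot of reCj31184 stood above background on any of the 3 arrays. The HECT ligases UPL1, UPL5 and KAK were not called against 0 hpe in any part.

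Of 16 tested F-box proteins, 2 were called higher and 4 lower at the base at 3 hpi (all targets 15.5% and 14.6%). The F-box protein reCj12932, listed in clusters A1 and C4 that the study describes as peaking at 0 hpi, rose in all parts at that time. It was at -1.85, -0.94 and -0.20 at the base at 0 hpe and at 2.00, 1.43 and 1.90 at 0 hpi, with log2 differences of 2.77 at the base, 3.24 in the middle and 2.59 in the needles. The F-box protein reCj20350 fell to -2.21, -2.20 and -2.15 at the base at 3 hpi, from -0.69, 0.06 and 0.01 (-1.98). In needles, reCj26906 went from -0.03, 0.11 and -0.09 at 0 hpe to -2.81, -1.92 and -2.80 at 3 hpi (-2.51). SKP2A (reCj21815), which in Arabidopsis takes part in degrading cell cycle regulators, was lower in the middle at 0 hpi by 1.16. EID1 and SLOMO were not called in any comparison with 0 hpe.

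**Figure D4:**
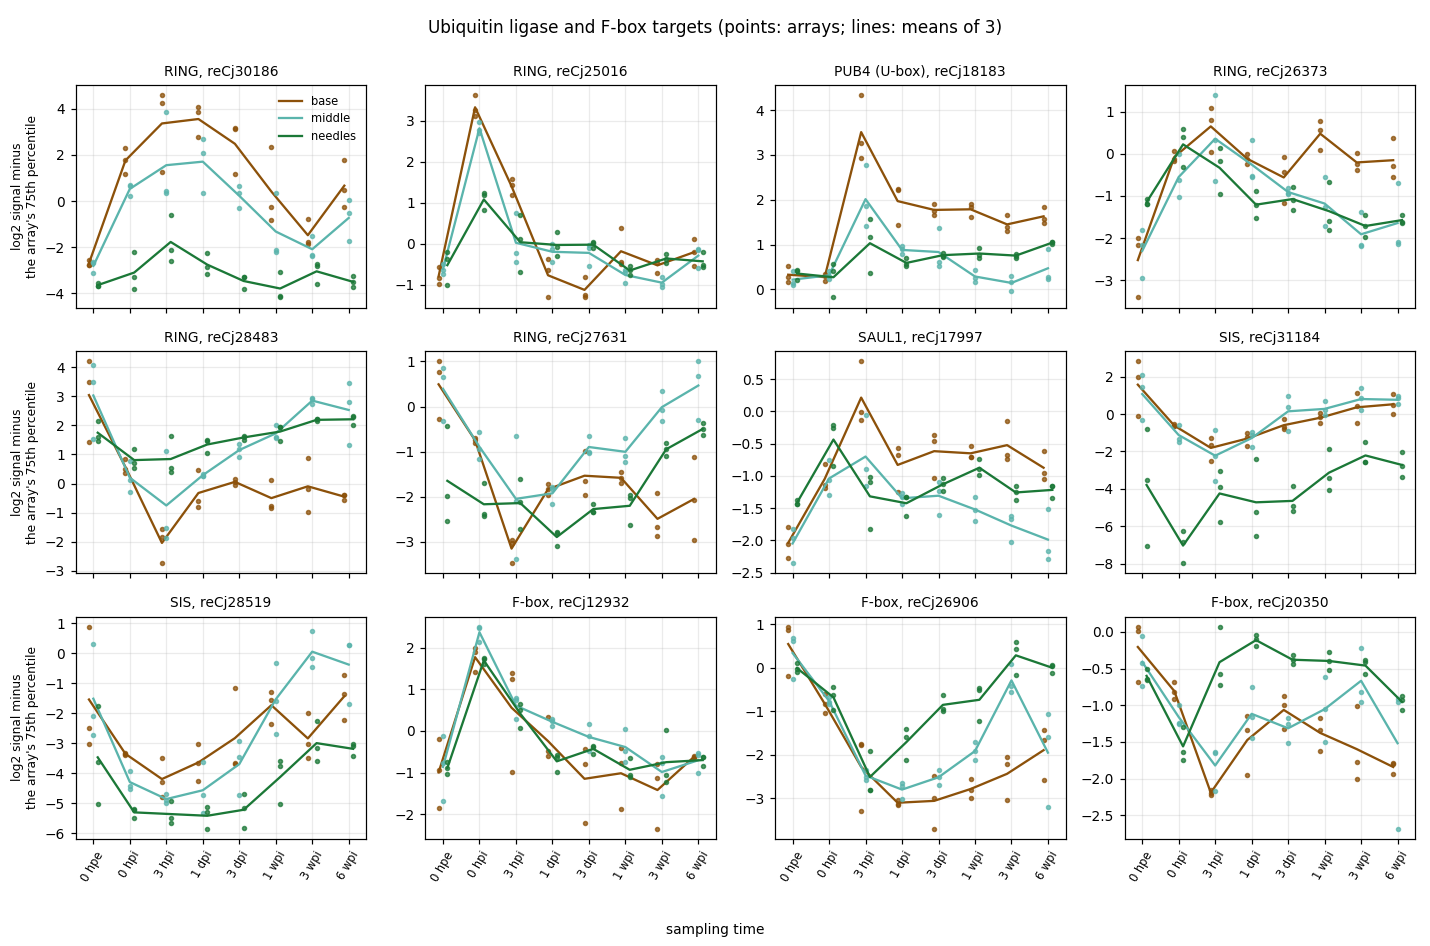
Log2 level (0 is each array's 75th percentile) at the 8 time points for 12 targets described as ligases or F-box proteins. Points are arrays and lines are group means of base, middle and needles. reCj30186 climbs to between 1.26 and 4.59 at the base at 3 hpi, and reCj28483 falls to -1.56 or lower at the base at 3 hpi, and at 6 wpi is again above 1 in the middle but not at the base.

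Deubiquitinases had the smallest median range of the classes, and at the base at 3 hpi 1 of 9 was higher and 1 lower (all targets 15.5% and 14.6%). None was called there at 6 wpi. UBP15 (reCj18049), a ubiquitin protease of leaf growth in Arabidopsis, was at -0.38, -0.58 and -0.88 at 0 hpe and at -2.13, -2.23 and -1.99 at 3 hpi (log2 difference -1.51). UBP23 (reCj18930) rose at 3 hpi by 1.07 at the base and 1.38 in the middle. Without replicate 2 of the base the first was 0.73 and not called. UBP6, UBP13 and UBP14 were not called against 0 hpe. Among ubiquitin-binding proteins, UFD1 (reCj23848), a partner of the segregase CDC48, was higher at the base by 1.16 at 3 hpi and 1.09 at 6 wpi. Without replicate 2 at 0 hpe these were 0.84 and 0.76, and neither was called. At 6 wpi the base arrays of UFD1 overlapped those at 0 hpe. Of the ubiquitin-like proteins, reCj18436 was at -4.46, -4.52 and -4.20 at the base at 0 hpe and at -2.64, -2.60 and -2.78 at 6 wpi. The middle at 6 wpi was at -4.52, -3.83 and -4.55, below every base array. With quantile normalization the difference between base and middle at 6 wpi was 0.61 (adjusted P = 0.0747) and that between 6 wpi and 0 hpe at the base 0.61 (adjusted P = 0.0668), so that both calls ended.

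Base and middle were then compared directly. At 3 hpi, 8 members were higher at the base and 2 lower, where 1.81% of all targets were called higher and 3.14% lower. The 2 lower were UBP15 (reCj18049, -1.09, and -0.95 and not called without replicate 2 of the middle) and reCj30872, which has no usable hit. The 8 higher were 3 ubiquitin genes and 5 RING/U-box proteins. The total of 10 became 27 without replicate 1 of the middle, 4 without its replicate 3 and 16 without replicate 1 of the base, and it was 0 in a fit of those 6 arrays alone. At 6 wpi, 13 members were higher at the base and 6 lower, where 12.9% of all targets were called higher and 9.46% lower, and with quantile normalization 10 and 8.

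To compare the changes themselves, the change at the base from 0 hpe to 6 wpi was set against that in the middle. It was called greater for 11 members and lower for 5, where 8.18% of all targets were called greater and 7.56% lower. The greater were UBC8 (reCj27456, 2.41), PAD2 (2.23), reCj26373 (1.70), reCj18436 (1.70), reCj28812 (1.63), the RING/U-box protein reCj28088 (1.61), UBQ6 (reCj29650, 1.43), LOG2 (reCj21886, 1.26), SAUL1 (1.10), PAC1 (reCj26838, 1.09) and PUB4 (reCj18183, 1.05). The lower were reCj28483 (-3.00), reCj27631 (-2.62), UBQ1 (reCj30964, -1.16), the F-box protein reCj28656 (-1.03) and the RING/U-box protein reCj28409 (-1.03). The split was 6 and 5 with quantile normalization and 4 and 4 with normexp. The total of 16 became 8 without replicate 3 of the middle at 0 hpe, 10 without replicate 1 of the middle at 6 wpi, 8 without its replicate 3 and 24 without its replicate 2, and PUB4 missed the threshold with the replicate number as a block (adjusted P = 0.0544). In a fit of those arrays alone UBC8 (adjusted P = 0.0661), PAD2 (0.177), reCj26373 (0.161), reCj28812 (0.12), UBQ6 (0.151), SAUL1 (0.0828), PAC1 (0.117), PUB4 (0.0692), reCj27631 (0.0705) and reCj28483 (0.137) were not called. With quantile normalization reCj18436 was at 0.56 and PAD2 at 1.39, neither called, and with normexp reCj18436 was at 0.70 and reCj28812 at 0.99, neither called. Without replicate 3 of the middle at 0 hpe the calls of reCj28483 (-2.24), UBQ6 (1.08), reCj26373 (1.63), SAUL1 (0.99), PAC1 (0.92) and PUB4 (1.11) were among those lost.

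**Figure D5:**
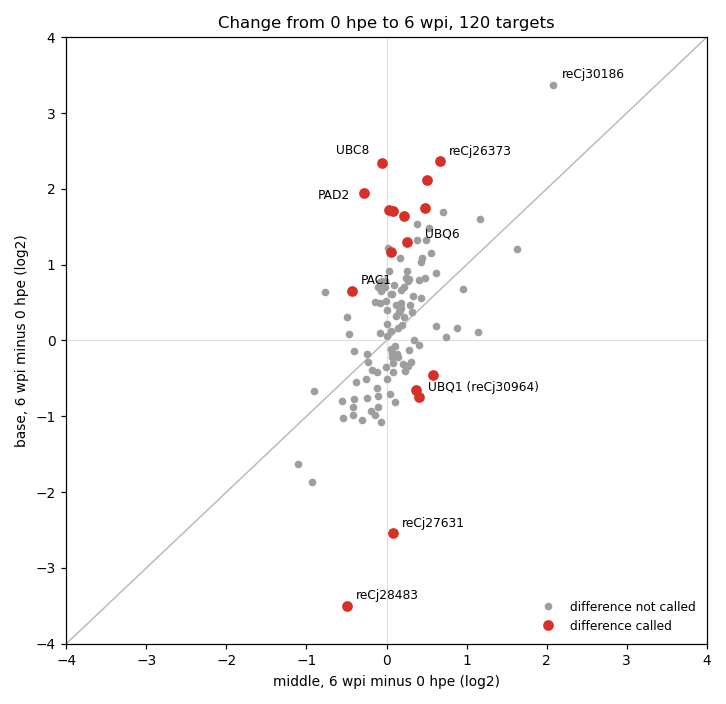
Change from 0 hpe to 6 wpi at the base (vertical, log2) against that in the middle (horizontal, log2) for the 120 tested members, with red points where the difference between the changes was called. Of the 16 red points, 11 lie above the diagonal, PAD2 and UBC8 among them, and 5 below, with reCj28483 the farthest.

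At 0 hpe the needles already differed from the base. There, 12 of 116 members were higher in needles and 16 lower, where 10.6% of all targets were called higher and 12.1% lower. PAD2 (2.68), UBC8 (1.69), UBQ6 (1.42), PAC1 (1.40) and the UFM1-conjugating enzyme (1.26) were higher in needles. RUB1 (reCj28213, the ubiquitin-like activator of cullin ligases, -1.18), UPL1 (reCj20112, -1.09) and reCj33396 (-2.58) were lower. With normexp UBC8 was at 0.90, the UFM1-conjugating enzyme at 0.77 and RUB1 at -0.75, none called. The total of 28 became 18 without replicate 1 of the base.

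In needles at 6 wpi, 15 members were lower, of which 5 had no usable hit. Among the rest were the 2 proteasome alpha subunits, UBC8 (reCj27456), the UFM1-conjugating enzyme and UBA2 (reCj18214, an E1 enzyme, -1.11). The ubiquitin-like ones were reCj18436 and the UFM1-like reCj33077 (CCP2, -1.14). The remaining ones were the RING/U-box proteins reCj27546 and reCj27442 and reCj25482 (-1.49), an F-box protein by a weak hit (E value 1.02e-06). PAD2, PAC1, UBC8, the UFM1-conjugating enzyme, reCj33077 and reCj25482 were listed in cluster C2, described by the study as repressed after 3 wpi. UBA2, reCj18436 and reCj27546 were listed in C3, which the study names among the clusters altered at 3 and 6 wpi. Their falls are therefore not independent of the lists. Cell division targets of the same lists were those whose description names cyclin, kinesin or minichromosome, cyclin-dependent kinases and their inhibitors included. In needles at 6 wpi, 1 of 33 was called higher and 23 lower, with a median of -1.38 (all targets 5.29% and 7.67%). At the base at 6 wpi, 5 of 13 were called higher and 1 lower, with a median of 0.843 (all targets 16.8% and 10.7%). Of 4 photosystem targets tested at the base at 6 wpi, 0 were called higher and 3 lower, with a median of -5.97. The part of these tissue changes in the members' values was not tested.

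A further 51 listed targets that the rule leaves out were picked by words for related proteins in their descriptions. Among them were BTB proteins, a COP9 signalosome subunit, plant U-box proteins, CDC48 and autophagy proteins. Whether each acts in the ubiquitin pathway was not checked. At the base at 3 hpi, 8 of 39 tested were called higher and 6 lower (median 0.554), where 15.5% of all targets were called higher and 14.6% lower. At 6 wpi, 8 were higher at the base and 1 lower (median 0.311, all targets 16.8% and 10.7%), and in needles 3 of 49 were higher and 4 lower (5.29% and 7.67%).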

How the data were processed

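The authors deposited Agilent scanner intensities of 72 arrays, 1 per cutting sample, from Agilent Feature Extraction 11.5 (submitters' processing notes), background-subtracted and not normalized between arrays. A log2 table that the authors deposited for the same probes served as an alternative. Groups were taken from the array labels. For each target the mean processed signal of spots without a non-uniformity flag was taken, its log2 computed and the array's 75th percentile subtracted. A target entered the tests of a dataset (base and middle, needles, or all) where, on each of its arrays, no spot was flagged, each spot was well above background and the mean signal exceeded 10.

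Group means were compared with limma 3.58.1 (lmFit and eBayes, two-sided, R 4.3.3), with Benjamini-Hochberg adjustment over all targets of the dataset. Scripts used statmod 1.5.0 and the R package data.table (version 1.17.8), matplotlib 3.10.9, NumPy 2.4.6 and pandas 2.3.3 under Python 3.11.15, and were tested on simulated data. The members and gene lists were chosen with earlier results of these data known. Named in the text were all ubiquitin genes and proteasome members, and, by class and comparison, the largest differences among calls whose arrays did not overlap (3 per class, 5 for RING/U-box and F-box proteins). Further members were chosen after their values were seen, for a known role or to complete a short count.

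Base and middle replicates of the same number deviated together at 0 hpe (lowest correlation of deviations 0.748, highest between different numbers -0.115). At 6 wpi the lowest was 0.185 and the highest between different numbers 0.287, and at 3 hpi -0.225 and 0.305. At those times the values do not show whether the numbers pair the parts. The main tests used no pairing. For comparisons between parts, the replicate block paired the parts by number at every time. For comparisons within 1 part, it was the replicate number as a factor shared by all times, which pairs no cuttings. Each time used different cuttings. Alternatives were normexp background correction (on median signal and background, offset 50), quantile normalization, no filter, another detection flag, the deposited log2 table, only the arrays compared, slide and replicate blocks, and each array left out. Precision is limited by having 3 arrays in each group. The authors' centring of their table does not affect differences between groups.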

Additional observations from a re-analysis of the deposited data

Results flagged for a closer look

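For 12 of the members that the naming rule chose, the change from 0 hpe to 6 wpi differed between base and middle by a test of the difference itself (limma, an interaction contrast, log2 change at the base minus log2 change in the middle). It was 2.41 for reCj27456 (UBC8), 2.23 for reCj25688 (PAD2), 1.70 for reCj26373, 1.70 for reCj18436, 1.63 for reCj28812, 1.43 for reCj29650 (UBQ6), 1.10 for reCj17997 (SAUL1), 1.09 for reCj26838 (PAC1) and 1.05 for reCj18183 (PUB4). It was -1.16 for reCj30964 (UBQ1), -2.62 for reCj27631 and -3.00 for reCj28483. In a fit of those arrays alone reCj18436 and reCj30964 kept their calls and the other 10 did not (adjusted P from 0.0661 to 0.177). With quantile normalization reCj18436 was at 0.56 (adjusted P = 0.308), and with normexp at 0.70 (adjusted P = 0.142). The middle lay on slides of its own, and slide and part cannot be told apart here.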

How the results depend on the processing

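The cause of the changes below was not tested. With only the arrays compared, the members called were 17 at the base at 0 hpi, 16 and 26 in the middle at 0 and 3 hpi, 0 in the middle at 6 wpi, 0 for base against middle at 3 hpi, 4 for the difference between changes and 3 in needles at 3 hpi. With slide as a fixed block at 6 wpi the base had 3, the middle 0 and the needles 5, and reCj27631 in needles at 6 wpi turned to -0.14 (adjusted P = 0.94). With the arrays of 1 part and no block, an alternative added after seeing the data, the middle at 6 wpi had 0. With normexp there were 1 in the middle at 6 wpi, 12 for base against middle at 6 wpi, 8 for the difference between changes, and 12 and 9 in needles at 0 hpi and 6 wpi. With no filter there were 31, 25 and 48 for base against middle at 6 wpi, the difference between changes and needles against base. Leaving out 1 array gave 21 to 38 (base 0 hpi), 59 to 67 (base 3 hpi), 26 to 33 (base 6 wpi), 19 to 36, 32 to 52 and 0 to 2 (middle 0 hpi, 3 hpi and 6 wpi), 4 to 27 and 16 to 25 (base against middle at 3 hpi and 6 wpi), 8 to 24 (difference between changes), 19 to 27, 6 to 17 and 12 to 17 (needles 0 hpi, 3 hpi and 6 wpi) and 18 to 36 (needles against base). With the replicate number as a factor shared by all times, which is no pairing, the base had 29, 64 and 27 and the middle 26, 47 and 2. With base and middle paired by number there were 14 and 21 for base against middle, and 16 for the difference between changes. Of 178 called differences of the 45 members named by the rule, these replicate blocks ended 1 (reCj18183, above). The random slide block, the other detection flag and the deposited table ended none.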
